A study of Caenorhabditis elegans with 2 samples.

Results

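SNPC-4 peaks in the right piRNA cluster of *Caenorhabditis elegans* chromosome IV were described here by position, signal, neighbouring genes and agreement between replicates. Chromatin immunoprecipitation followed by sequencing (ChIP-seq) recovered DNA bound by SNPC-4 from sonicated chromatin of whole young adults, 1 group of 2 biological replicates. The worms were strain OP179, labelled as mixed sex and as pooled male and female, with the integrated transgene *wgIs179*, which gives SNPC-4 a C-terminal GFP-FLAG tag, and the mutation *unc-119(ed3)* on chromosome III. Both replicates carried transgene and mutation alike, the promoter of the transgene is not stated in the labels, and a possible control experiment named in the labels was not analysed here. The cluster was taken as 13.5 to 17.3 Mb of chromosome IV on ce11, and a peak belonged to it when its summit, the base of highest signal, lay between those bounds. The authors kept 2345 peaks after a threshold on the irreproducible discovery rate (IDR), and 508 of these did, which was 21.7% of the list and 59.3% of the 856 peaks of chromosome IV. The signal of a peak is the enrichment value given by the authors' peak caller, on a scale not stated. Among the 508 peaks its median was 54.7 and its range 41.6 to 1332. The thresholded list was exactly the 2345 strongest of the 30000 entries of the pooled list given to IDR, so the lower limit of 41.6 is a limit on signal. The 3 lowest members stood at 41.5774, 41.5636 and 41.5634, and the 3 highest entries of the cluster outside the list at 41.5319, 41.5197 and 41.5043. By position, the outermost members had summits at 13503769 (signal 57.5) and 17281324 (114), and the nearest peaks past the bounds at 13430362 (77.3) and 17380253 (84.7). Read counts were not used, so the depth was unknown, and intervals below are Wilson 95% intervals that cover the counting of peaks or genes only. With 1 group of samples no test between groups could be made.

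The protein SNPC-4 belongs to SNAPc, a complex that binds upstream of the genes of small nuclear RNAs (snRNAs) and of the spliced leader and starts their transcription. In the worm germline it is also known as a factor for piRNA genes, the short genes of 21U-RNAs, which are bound by the Argonaute protein PRG-1 and silence foreign transcripts. Most of these genes lie in clusters on chromosome IV, each with its own promoter, and many carry an upstream motif with the core CTGTTTCA. Whole adults hold germline and soma together, so the signal of a region averages over both.

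The cluster held 11534 of the 15363 annotated piRNA genes of the genome, 3.04 per kb, with 5769 on the plus strand and 5765 on the minus strand. The sequences below come from the RefSeq genome of WBcel235, which is ce11, and are written 5′ to 3′ on the strand of the gene. The first set shows 2 piRNA genes beneath a peak, the one with the strongest peak that had no other small RNA gene near, and *21ur-1*, which had no peak within 200 bp. Each has 65 bases before the piRNA, the piRNA itself and 5 bases after it, and capitals mark the exact motif where it is present and the 21 bases of the piRNA.
21ur-3207, chrIV:14908829-14908919, minus strand: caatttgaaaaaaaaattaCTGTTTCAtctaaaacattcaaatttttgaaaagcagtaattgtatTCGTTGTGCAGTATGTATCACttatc
21ur-15306, chrIV:14390057-14390147, plus strand: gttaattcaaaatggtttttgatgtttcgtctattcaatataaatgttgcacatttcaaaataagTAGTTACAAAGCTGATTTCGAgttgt
21ur-6987, chrIV:14875510-14875600, minus strand: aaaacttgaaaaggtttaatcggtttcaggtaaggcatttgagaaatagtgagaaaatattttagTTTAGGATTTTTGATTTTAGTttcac
21ur-1, chrIV:16687042-16687132, plus strand: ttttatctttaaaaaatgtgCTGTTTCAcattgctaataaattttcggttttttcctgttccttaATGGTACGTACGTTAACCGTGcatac
*21ur-3207* had a summit over its upstream motif, and *21ur-15306* a summit on its 5′ end, as did *21ur-11851*, which is not printed.

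The second set shows where the strongest peaks lay, as 131 bases that begin 100 bases before the 5′ end of a small nucleolar RNA (snoRNA), snRNA or tRNA gene. Capitals mark the 8-base words CGGAACCC and TACCGACA on either strand, so that TACCGACA reads TGTCGGTA in *Y57G11C.35*.
Y67A10A.14 (snoRNA), chrIV:14327091-14327221, minus strand: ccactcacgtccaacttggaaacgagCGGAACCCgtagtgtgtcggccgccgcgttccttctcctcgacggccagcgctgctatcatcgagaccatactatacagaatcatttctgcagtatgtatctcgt
Y57G11C.35 (snRNA), chrIV:14765004-14765134, minus strand: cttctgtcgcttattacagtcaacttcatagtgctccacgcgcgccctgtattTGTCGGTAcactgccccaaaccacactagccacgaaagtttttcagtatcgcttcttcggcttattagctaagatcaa
smy-10 (snRNA), chrIV:13601536-13601666, plus strand: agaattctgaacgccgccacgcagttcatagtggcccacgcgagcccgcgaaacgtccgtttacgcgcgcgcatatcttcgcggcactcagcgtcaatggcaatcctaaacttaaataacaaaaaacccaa
F02H6.t1 (tRNA-Pro), chrIV:14225002-14225132, plus strand: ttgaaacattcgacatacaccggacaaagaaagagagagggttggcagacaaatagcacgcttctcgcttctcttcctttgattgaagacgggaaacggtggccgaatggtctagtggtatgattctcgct

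Of the 10 strongest peaks of the cluster 7 lay at tRNA, snRNA and snoRNA genes, called structured RNA genes here, and most peaks were weak ones among piRNA genes, where most bases of the cluster also lie. A summit was near a gene when it lay within 200 bp of its 5′ end. Near a structured RNA gene were 40 peaks, 7.87% of the members (5.84 to 10.5%), whereas 0.509% of the cluster's bases are that near. Over all thresholded peaks of the genome the share was 19.3%. The median signal of the 40 was 304 and the range 43.8 to 1332, and 36 of them reached 100. A further 302 peaks, 59.4%, were near a piRNA gene and near no structured RNA gene, and 55.8% of the cluster's bases are near a piRNA gene. Their median signal was 50.4 and the range 41.6 to 313, and 8 reached 100. These 302 are called near a piRNA gene only, although some were also near a protein-coding 5′ end, such as that of *paqr-3*. Near the 5′ end of a protein-coding or other gene, and near neither of these kinds, were 41 peaks, with a median signal of 74.9 and a highest value of 529. The remaining 125 peaks, 24.6%, had no 5′ end of these classes within 200 bp, a median signal of 65.4 and a highest value of 532. Pseudogenes were not used in this division, and 1 member lay within 200 bp of a pseudogene 5′ end. The division into these 4 kinds was made after the values had been seen, and members share libraries and are not replicates.

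**Figure D1:**
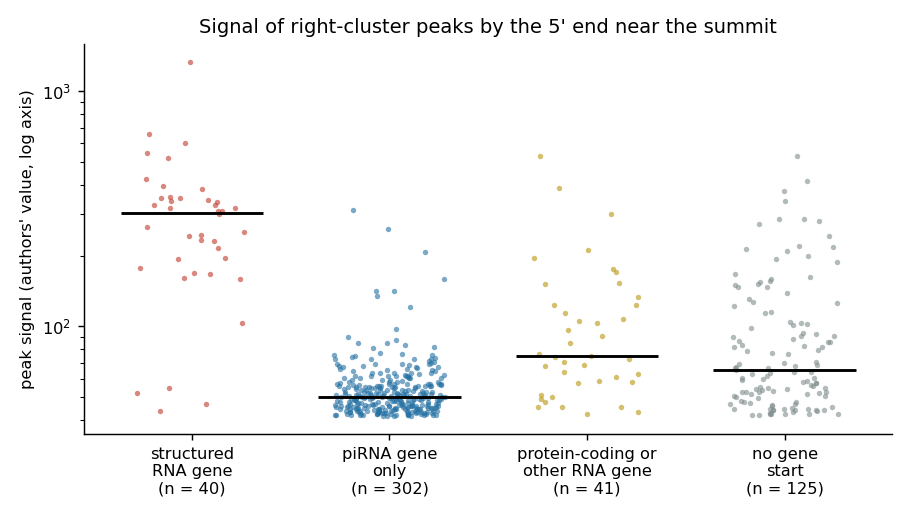
Signal of each of the 508 right-cluster peaks on a log axis, by the kind of annotated 5′ end within 200 bp of the summit; points are peaks, spread sideways at random, and the black line is the median. Peaks near a structured RNA gene have a median of 304. Peaks near a piRNA gene only, meaning with no structured RNA gene near, have a median of 50.4, close to the lower limit of 41.6.

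The strongest peak of the cluster, rank 21 of the whole list, lay 59 bp upstream of the snoRNA gene *Y67A10A.14* (chrIV:14326948-14327121), outside protein-coding genes. Replicate 1 gave it a signal of 700 and replicate 2 a signal of 644, and the thresholded list 1332. SnoRNAs guide the chemical modification of ribosomal and other RNAs. Of the 9 annotated snoRNA genes of the cluster 5 had a peak. Besides *Y67A10A.14* these were *Y73F8A.1175* with 521, *Y105C5A.1283* with 356, *Y57G11C.1145* with 351 and *Y51H4A.940* with 318. The 4 snoRNA genes with no peak, *Y41E3.464*, *Y105C5B.1419*, *Y116A8C.50* and *F26D10.24*, lay in introns, as did *Y73F8A.1175* among the 5 with a peak. Outside the cluster 90 of 337 snoRNA genes had a thresholded peak, 26.7%.

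The snRNA genes of the cluster included the SmY RNAs, small RNAs of the worm that act beside the spliced leader RNA in trans-splicing. Elsewhere in the annotation 50 of 91 snRNA genes had a peak, 54.9%, and the difference was not tested. Of the 8 snRNA genes in the cluster 6 had a peak, 75% (40.9 to 92.9%), and *C35D6.6* and *C35D6.7* had none. The highest of them, *Y57G11C.35* (chrIV:14764848-14765034, within an intron of *Y57G11C.5*), had a signal of 656 with its summit 30 bp before the 5′ end, and values of 400 in replicate 1 and 246 in replicate 2. The summit at *smy-8* (chrIV:13600847-13600925) lay 43 bp upstream, with a signal of 423 and values of 218 in replicate 1 and 215 in replicate 2. At *smy-10* (chrIV:13601636-13601725) it lay 22 bp upstream, with 396, and 225 in replicate 1 and 183 in replicate 2. The genes *smy-9*, *smy-11* and *smy-12* followed with 196, 168 and 160. The 6 summits had a median position 26 bp upstream of the 5′ end, and ranged from 43 bp upstream to 27 bp downstream, at *smy-11*.

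Nearly every tRNA gene of the cluster had a peak, 29 of 32 or 90.6% (75.8 to 96.8%). Elsewhere in the annotation it was 255 of 580 tRNA genes, 44.0%, and the difference was not tested. The tRNA summits had a median position 20 bp downstream of the 5′ end, inside the gene, and ranged from 143 bp upstream to 109 bp downstream. The median signal was 251 and the range 43.8 to 602. The highest values were those of the proline tRNA gene *F02H6.t1* (chrIV:14225102-14225173), with 602 and replicate values of 354 and 269, and the alanine tRNA gene *Y37A1B.t1* (chrIV:14013805-14013876), with 548 and replicate values of 334 and 224. Next was the histidine tRNA gene *Y57G11C.t1* (chrIV:14889022-14889093), in an intron of *eps-8* on the other strand, with 383 and replicate values of 203 and 197. The 4 serine tRNA genes *Y73F8A.t4*, *Y73F8A.t3*, *Y51H4A.t6* and *Y51H4A.t2* were the 4 lowest, with 54.9, 52.3, 46.8 and 43.8, against 159 or more at the others. No peak lay near *Y40H7A.t1*, a histidine tRNA gene, or near the glycine tRNA genes *Y51H4A.t3* and *Y51H4A.t5*. Because tRNA genes are near copies of each other, reads could be shared among them. Around the summits of the 40 peaks near structured RNA genes a median of 70.3% of 32-base words were found only once in the genome, and 12 of the 40 reached 80%. Values at single tRNA genes, at *Y57G11C.35* with 72.9%, at *Y73F8A.1175* with 58.2% and at *Y57G11C.1145* with 54.7% are uncertain for this reason. The exceptions among tRNA genes, which reached 80%, were *B0513.t1*, *Y51H4A.t4* and 1 peak shared by *Y105C5B.t2* and *Y105C5B.t3*. The summit of that shared peak lay 57 bp upstream of *Y105C5B.t2* and 64 bp upstream of *Y105C5B.t3*, so its signal could not be assigned to either gene.

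The strongest peaks near a piRNA 5′ end lay at these same structured RNA genes. The 5 highest had signals of 602, 521, 423, 396 and 343, and each of them was also near a structured RNA gene: *F02H6.t1*, *Y73F8A.1175*, *smy-8*, *smy-10* and the valine tRNA gene *Y73F8A.t1*. In 4 structured RNA genes of the cluster a total of 5 piRNA genes are annotated inside the gene on its own strand. The piRNA genes *21ur-1009*, *21ur-3338*, *21ur-3398* and *21ur-458* begin 1, 2, 3 and 2 bp downstream of the 5′ ends of *Y73F8A.1175*, *smy-8*, *smy-10* and *smy-12*. The stretch printed for *smy-10* runs into *21ur-3398*. Which of the 2 genes at such a place the signal belonged to was not tested.

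Away from structured RNA genes, the highest signal near a piRNA gene was at *21ur-6987* (chrIV:14875515-14875535), with 313 and replicate values of 215 and 107. Its summit lay 133 bp downstream of the 5′ end. Next were *21ur-3443* with 259, *21ur-8219* with 206, *21ur-6398* with 159 and *21ur-5333* with 142. All 5 summits lay downstream, by 85 to 191 bp, and around the summit of *21ur-8219* 48.2% of 32-base words were at a single place, so its value is uncertain. At *21ur-15306* the summit was the first base of the piRNA itself, with a signal of 43.3, an entry of 47.1 in replicate 1 and no entry within 100 bp in replicate 2. The same held at *21ur-11851*, with a signal of 45.7, an entry of 2.27 in replicate 1 and none in replicate 2. At *21ur-3207* the summit lay over the motif, 43 bp before the piRNA begins, with a signal of 53.8, and 44.4 in replicate 1 and 6.0 in replicate 2. The 3 lowest members of the cluster were also near piRNA 5′ ends, those of *21ur-9800*, *21ur-11476* and *21ur-5656*. *21ur-1* (chrIV:16687107-16687127), whose upstream motif is exact, had no peak near, and the closest summit lay 2645 bp away, at the glycine tRNA gene *Y51H4A.t4* with a signal of 299.

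Summits were near piRNA 5′ ends somewhat more often than the bases of the cluster are. Within 200 bp were 310 of the 508 members, 61.0% (56.7 to 65.2%), against 55.8% of all bases, and over all thresholded peaks of the genome it was 14.4%. Taking the strongest entries of the separate lists instead, replicate 1 had 69.6% and replicate 2 had 55.2% there (62.4 ± 10.1%, SD, n = 2), and in the stronger 1172 peaks of the thresholded list it was 35.6%. Without the peaks near structured RNA genes the share was 302 of 468, 64.5% (60.1 to 68.7%), against 55.9% of bases. Within 50 bp it was 28.0% of members against 21.8% of bases. The median distance to the nearest piRNA 5′ end was 123 bp for members and 158 bp for all bases. Around the members away from structured RNA genes, piRNA 5′ ends numbered 4.27 per kb within 25 bp of the summit, 4.81 per kb at 50 to 100 bp, 3.53 per kb at 500 to 1000 bp and 3.04 per kb over the whole cluster. By side, 236 members, 46.5%, lay upstream of the nearest piRNA 5′ end, where 48.8% of bases do. The 810 piRNA genes with a member within 200 bp were 7.02% of all in the cluster.

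**Figure D2:**
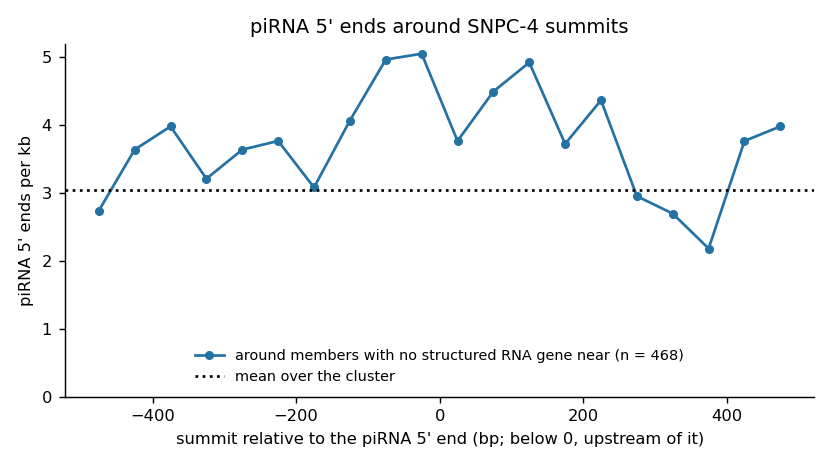
Density of annotated piRNA 5′ ends around the summits of the 468 members with no structured RNA gene near, in bins of 50 bp, by the position of the summit relative to the 5′ end (bp). The dotted line is the mean of the cluster, 3.04 per kb. The bins from -100 to 0 bp hold 4.96 and 5.04 per kb, and the bin from 100 to 150 bp downstream holds 4.91 per kb.

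The exact motif CTGTTTCA, searched on both strands, was within 100 bp of 106 summits, 20.9% (17.6 to 24.6%), and 17.6% of all windows of that length in the cluster hold it, a share within this interval. Over all thresholded peaks of the genome the share was 5.03%. None of the 40 peaks near structured RNA genes held it, which allows a share of up to 7.5%, and 22.6% of the other 468 did. Its density was 1.74 per kb within 25 bp of those 468 summits, 1.11 per kb at 25 to 50 bp, 1.09 per kb at 50 to 100 bp and 0.966 per kb over the cluster. With 1 mismatch allowed the share was 49.2%, beside 49.5% of all windows. Among the 11534 piRNA genes, 3902 had the exact motif 30 to 70 bp upstream, 33.8%, with a median position of its first base 46 bp upstream of the 5′ end. Of these 274 had a member within 200 bp, 7.02%, and of the 7632 piRNA genes without the exact motif 536 had one, which was also 7.02%. Most members were 380 bp wide, which spans a motif and its piRNA.

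The make-up of the peaks changed with their signal. The members were split by rank of signal into 4 sets of 127. In the strongest set, from 76.6 to 1332, 20.5% were near a piRNA 5′ end, 28.3% near a structured RNA gene and 2.36% near the motif, and the median GC content within 50 bp of the summit was 48.5%. In the second set 67.7% were near a piRNA 5′ end, in the third 78.7% and in the fourth, from 41.6 to 46.6, 77.2%. The motif share in the second to the fourth set was 22.8, 26.0 and 32.3%, and their median GC content was 32.7, 30.7 and 29.7%. The GC content of the whole cluster was 32.4%. The 508 entries of the pooled list next below the threshold, from 29.7 to 41.5, had a piRNA share of 81.9% and a motif share of 31.7%. The 508 weakest entries of the cluster had 57.5 and 16.3%, beside 55.8 and 17.6% for all bases or windows. Most of the peaks near a piRNA 5′ end therefore lay close to the limit. A further 4460 entries of the pooled list lay in the cluster below that limit, 1 entry of that list per 765 bp.

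The same order was present in the separate lists of both replicates, ranked by each replicate's own signal. Among the 100 strongest entries of the cluster, 19.5 ± 2.12% were near a piRNA 5′ end and 36.0% near a structured RNA gene in either replicate (SD, n = 2). At ranks 101 to 500 the piRNA share was 74.0 ± 5.66% (78.0% for replicate 1 and 70% for replicate 2), and the motif share was 29.0 ± 2.12%. At ranks 501 to 1000 the piRNA share was 80.1 ± 4.38% and the motif share 30.3 ± 3.25%. At ranks 3001 to 3800 they were 65.8 ± 0.177% and 20.5 ± 0.530%. Beyond the 100 strongest, the median GC content of each rank range lay between 27.7 and 33.2% in both replicates, and its part in these shares was not tested.

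**Figure D3:**
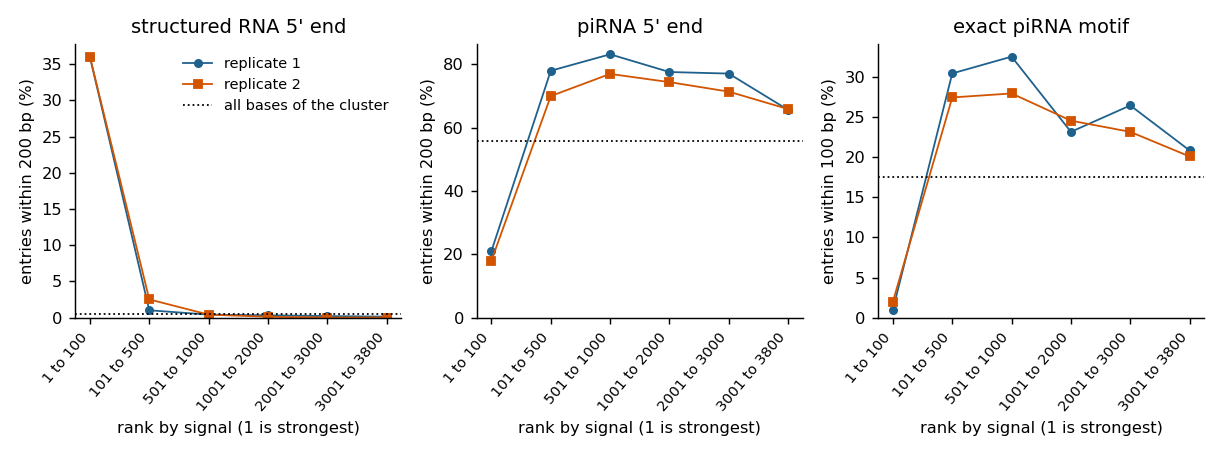
Share of entries of the cluster near a structured RNA 5′ end (within 200 bp), a piRNA 5′ end (within 200 bp) and the exact motif (within 100 bp), by rank of signal in each replicate's own list; the dotted line is the share of all bases or windows of the cluster. In both replicates the 100 strongest entries have a low piRNA share, 21.0% in replicate 1 and 18.0% in replicate 2, and ranks 501 to 1000 have the highest, 83.2% and 77.0%.

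Peaks at other places made up much of the upper part of the list. Of the 96 members with a signal of 100 or more, 36 were near a structured RNA gene and 60 were not, and of those 60 a total of 59 had an entry in both replicate lists. Among the 60, 12 were near a protein-coding 5′ end, beside 39 of all 508 members, 7.68%. Only 8 of the 60 were near a piRNA 5′ end, a lower share than the 61.0% of all members and the 55.8% of bases. These differences were not tested. Some of the 60 lay in repeated sequence, so their values are uncertain. Around the summits with signals of 162 and 127, 0.588% and 0% of 32-base words were at a single place. Of all 125 members with no 5′ end near, 101 reached 80%. The highest with no annotated 5′ end near, at summit chrIV:15693465 in an intron of *Y105C5A.15*, had 532, with 289 in replicate 1 and 251 in replicate 2. The next, at chrIV:17249910, had 414 and lay 221 bp upstream of *eelo-2*, just past the limit for a near gene. An intronic peak of *zip-7*, which encodes a bZIP transcription factor, had 376, with 231 in replicate 1 and 140 in replicate 2. The unclassified noncoding RNA gene *LLC1.120* had a peak of 529 with its summit 30 bp downstream of the 5′ end, and 292 and 239 in the replicates. Near protein-coding 5′ ends the highest were *tsr-2* with 300, *ntl-11* with 211 and *rom-4* with 196, with summits 175, 106 and 156 bp upstream. The microRNA genes *mir-1833* and *mir-798* had 57.3 and 51.4, and the other 8 microRNA genes of the cluster had no peak.

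The word CGGAACCC, seen upstream of *Y67A10A.14*, was within 100 bp of 33 members, 6.50% (4.66 to 8.98%), and in 0.586% of windows of the cluster. Over all thresholded peaks it was 6.52%. The word was chosen from earlier results on these data, so its share is a description. The other word marked above, TACCGACA, was within 100 bp of 3 members, 0.591%, beside 0.209% of windows and 0.817% of the other thresholded peaks. Only 1 of the 40 peaks near structured RNA genes held TACCGACA. Of the 33 peaks 29 were near no structured RNA gene, 16 of them with no annotated 5′ end near and 12 near a piRNA gene only. An entry in both replicate lists was present for 23 of the 29. Some of the 29 lay in repeated sequence, so their signals and replicate entries are uncertain. Around the summits with signals of 86.2, 67.6 and 51.7, the share of 32-base words at a single place was 23.5, 18.8 and 24.1%. Around the summit with a signal of 280 it was 92.4%. Whether the 29 are separate bound sites was not tested. The highest of them, with its summit at chrIV:14525790 outside protein-coding genes, had a signal of 280, with 176 in replicate 1 and 81.1 in replicate 2. It is printed here beside the snoRNA gene *Y105C5A.1283*, whose peak had 356, with 83.0 in replicate 1 and 158 in replicate 2, because the 2 stretches were alike. Capitals mark CGGAACCC.
Unannotated peak, chrIV:14525745-14525875, plus strand: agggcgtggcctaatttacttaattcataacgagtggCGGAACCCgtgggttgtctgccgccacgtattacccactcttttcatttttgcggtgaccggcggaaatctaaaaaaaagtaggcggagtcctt
Y105C5A.1283 (snoRNA), chrIV:15649330-15649460, minus strand: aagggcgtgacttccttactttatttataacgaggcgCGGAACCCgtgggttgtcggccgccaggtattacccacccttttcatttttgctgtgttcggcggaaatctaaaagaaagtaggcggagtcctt
In a local alignment over all 131 bases 87.8% of columns were identical. This was the best match among the 29 peaks: 14 aligned over 80 or more columns, the others of them at 62.2 to 65.8% identity. The stretch at *Y67A10A.14* aligned with it over 34 columns only. The stretch with the word at the snoRNA gene *Y51H4A.940* matched that of *Y105C5A.1283* at 88.5% of columns.

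Along the cluster, windows with more piRNA genes held more peaks. The 38 windows of 100 kb held between 4 and 25 members with a median of 13.5, and between 24 and 486 piRNA genes with a median of 310. The Spearman correlation of the counts was 0.73 and Pearson's r was 0.74 (38 windows, as a description, since windows share both libraries and neighbour each other). It was 0.80 in the 2345 strongest entries of replicate 1 and 0.61 in those of replicate 2, and 0.21 in the stronger 1172 peaks of the thresholded list. The count of piRNA genes also went with the GC content of the windows, with a Spearman correlation of -0.73, and members with GC at -0.52, and the part of GC content was not tested. The 19 windows with most piRNA genes held 315 members and the other 19 held 193. The window with most members, chrIV:15800001-15900000, held 25 members and 442 piRNA genes, and the window with fewest, chrIV:16900001-17000000, held 4 members and 184 piRNA genes. By distance from the left edge, the first Mb held 117 members, the second 155, the third 156 and the last 0.8 Mb 80, which was 100 per Mb there.

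**Figure D4:**
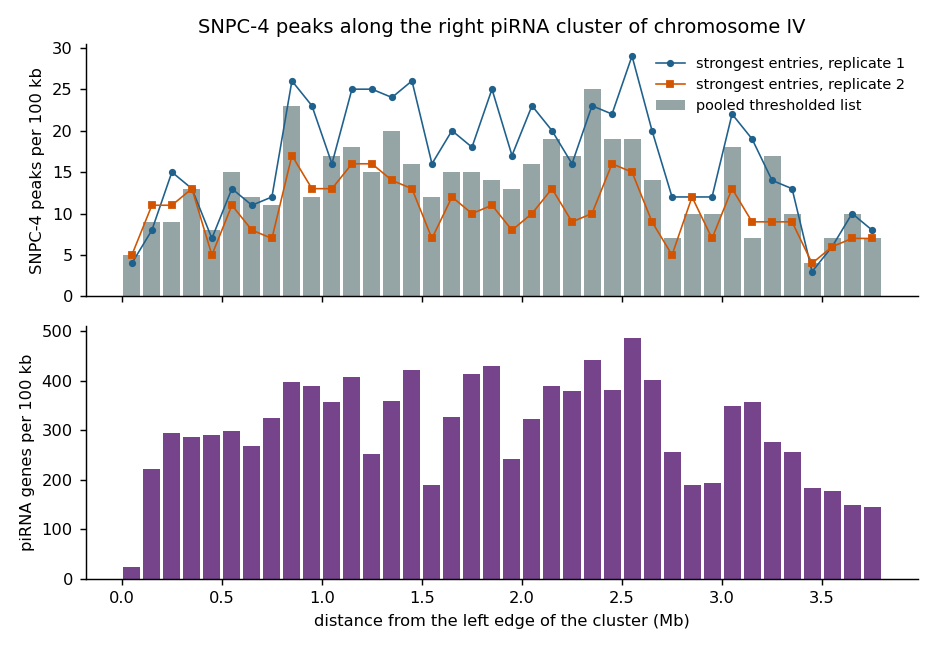
Upper panel, SNPC-4 peaks in 38 windows of 100 kb across the cluster by distance from its left edge (Mb): bars are members, and lines are the entries of each replicate's list among its 2345 strongest. Lower panel, annotated piRNA genes in the same windows. Member counts run from 4 to 25 and piRNA gene counts from 24 to 486.

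Gaps between neighbouring summits were measured across the whole cluster. Their median was 4594 bp and their mean 7451 bp, and 78 of the 507 gaps were at most 1000 bp. Linking summits up to 2000 bp apart gave 33 runs of 3 or more peaks with 115 members in all. No comparison with random placement was made, so whether the gaps and runs differ from those of scattered peaks was not tested. The longest run, 5 peaks from chrIV:14387696 to 14391504 with 22 piRNA genes, included *21ur-15306*, and its signals were all low, from 43.3 to 60.5. The widest gap without a member, 68167 bp from chrIV:13709444 to 13777611, held 238 piRNA genes. By location, 308 summits lay outside protein-coding genes, 60.6% beside 56.3% of bases, and 165 in introns, 32.5% beside 27.9% of bases. Another 20 lay in UTR exons, and 15 in coding exons, 2.95% beside 13.6% of bases.

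The replicates differed in how many peaks they gave in the cluster. Among the 2345 strongest entries of each list, replicate 1 had 628 in the cluster, 165 per Mb, and replicate 2 had 391, 103 per Mb (134 ± 44.1 per Mb, SD, n = 2). Replicate 1 had more in 32 of the 38 windows, replicate 2 in 3, and 3 were equal. At structured RNA genes the order was the other way, with 40 of these entries in replicate 1 and 45 in replicate 2. Near piRNA 5′ ends were 437 entries of replicate 1 and 216 of replicate 2. Of the 508 members 471 had an entry in the list of replicate 1 within 100 bp and 417 in that of replicate 2. Both lists had an entry for 384 members, 75.6% beside 84% of all thresholded peaks, and neither had one for 4. Of members near structured RNA genes 95% had both, and of members near piRNA genes only 68.5%. These lists hold background too, and 4686 of 27573 entries of replicate 1 and 3832 of 30000 of replicate 2 lay in the cluster. How many matches arise from this density alone was not tested. Among the 2345 strongest entries of each list, 158 members had an entry in both and 83 in neither.

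Where both entries were present, replicate 1 was higher in 289 of 384 members, 75.3%, against 73.1% of peaks in the left piRNA cluster of chromosome IV, 134 of 206 peaks on the rest of that chromosome and 58.9% of peaks on the other nuclear chromosomes. The median log2 ratio of replicate 1 to replicate 2 was 0.61 over the cluster, 0.26 for members near structured RNA genes and 0.90 for those near piRNA genes only. It was 0.49 in the left cluster, 0.36 on the rest of chromosome IV and 0.19 on the other nuclear chromosomes, and the differences between these medians were not tested. The signal of members near piRNA genes only had a median of 32.4 in replicate 1 and 17.4 in replicate 2. The correlation of log2 signals between replicates over the 384 members was 0.63 (Pearson) and 0.47 (Spearman), and 0.44 and 0.30 over the 346 of them away from structured RNA genes. Members were chosen by pooled signal, which limits how low both replicates can be and so bears on these correlations.

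**Figure D5:**
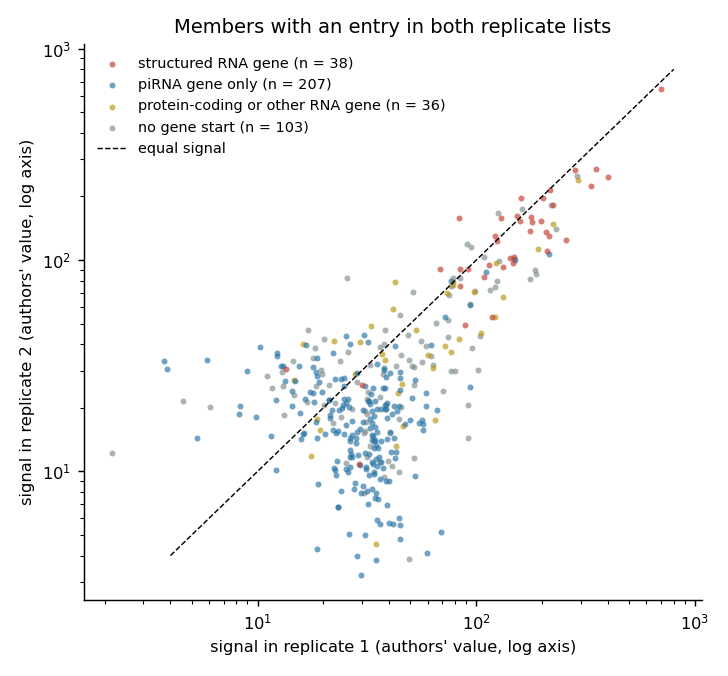
Signal in replicate 1 against replicate 2 for the 384 members with an entry in both lists, on log axes, coloured by the kind of 5′ end within 200 bp; the dashed line marks equal signal. The 38 peaks near structured RNA genes have a median log2 ratio of 0.26. Of the 207 peaks near a piRNA gene only, meaning with no structured RNA gene near, 162 are higher in replicate 1.

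Set beside the rest of the list, the cluster was dense in peaks, with a lower median signal in the pooled and the replicate 2 values. It had 134 peaks per Mb, against 50.5 per Mb in the left piRNA cluster of chromosome IV (4.8 to 7 Mb), 20.6 per Mb on the rest of that chromosome and 17.7 per Mb on the other nuclear chromosomes. The median signal was 54.7, against 83.0, 60.4 and 62.1 in the same order. In replicate 1 the median was 34.8, against 48.7, 34.8 and 33.7, and in replicate 2 it was 22.2, against 39.3, 29.3 and 29.8. A signal of 100 was reached by 18.9% of members, against 36.9, 23.2 and 18.0%. The motif share was 20.9%, against 2.70% in the left cluster, 0 of 237 peaks on the rest of chromosome IV, which allows up to 1.27%, and 0.616% on the other chromosomes. The median GC content within 50 bp of the summit was 34.7%, against 42.6, 47.5 and 48.5%. Of the members 65.6% had the commonest width of 380 bp, and 85.1% of those near piRNA genes only, but 5.0% of those near structured RNA genes. None of these differences was tested.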

How the data were processed

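SNPC-4 ChIP-seq peak lists from 2 replicates were used on ce11. Per the labels, each build had a list thresholded by IDR, and, as input to IDR, a pooled list and 1 list per replicate, which hold peaks and background. The signal of each peak is the deposited value of the authors' caller; the deposited −log10 q value was not used to rank. What is not given in the sources used here includes the aligner, the caller, the control scaling and the IDR cutoff, and depth is unknown. Genes came from Ensembl release 115 (WBcel235), with symbols from RefSeq by WormBase identifier (46881 of 46926 genes matched). Python 3.11.15 and numpy were used, and functions were tested on simulated data. Structured RNA genes were tRNA, snRNA, snoRNA, spliced leader and rRNA genes. A replicate entry matched a member when summits lay within 100 bp. The uniqueness of a place was the share of its 32-base words at a single genomic place. Alignments used Biopython 1.88. No test, placement or resampling was run, since there is 1 group.

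The genes named were the 10 strongest members, the 5 strongest near piRNA genes, the 3 strongest of each other class and the 3 weakest. Also named were the piRNA genes with a summit nearest to the 5′ end and to the motif. The fullest and emptiest window, *21ur-1* and *pkd-2* were named too. Added later were the 5 strongest peaks near piRNA genes and away from structured RNA genes. The 3 strongest with no gene start and the peaks with CGGAACCC were also added later. Members, lists and motif words were chosen with earlier results of these data known.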

Additional observations from a re-analysis of the deposited data

How the results depend on the processing

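No paired analysis was possible because there is only 1 group. Each replicate's list alone gave 103 to 165 peaks per Mb, piRNA shares of 55.2 to 69.6%, structured RNA shares of 6.37 to 11.5%, shares outside protein-coding genes of 60.7 to 60.9%, median signals of 29.0 to 33.8, motif shares of 19.7 to 26.0% and window correlations of 0.61 to 0.80. The lower piRNA share is that of replicate 2 alone and lies below the 55.8% of bases, where the 61.0% of members lies above. With only the stronger 1172 peaks of the thresholded list the cluster had 51.1 peaks per Mb, a piRNA share of 35.6%, a structured RNA share of 18.6%, 66.0% outside protein-coding genes, a median signal of 98.1, 90.2% in both replicate lists, a motif share of 7.73% and a window correlation of 0.21. In the stronger part of the list both the piRNA and the motif share thus lay below those of all bases or windows. Distances of 100 and 500 bp gave piRNA shares of 44.1 and 76.0%, and the motif share was 12.4% within 50 bp and 49.2% with 1 mismatch, below the 49.5% of windows. Matching by overlap of intervals by at least 50% put 90.0% of members in both replicate lists, and matching within the strongest entries of each put 31.1%. Divided by the median of all matched peaks, the log2 ratio of the replicates was 0.35. Windows of 50 and 200 kb gave correlations of 0.49 and 0.87. The share outside protein-coding genes was 60.8% with bounds moved in by 200 kb and 59.8% without members near structured RNA genes, an alternative chosen after seeing the data. The causes of these changes were not tested. In all, 34 values were counted as unchanged, by the spread of the replicates or the counting interval. Among them were values of single replicates given above, which themselves make up that spread. The shares of 60.8 and 59.8% outside protein-coding genes were counted as changed, although both lay within the counting interval of 56.3 to 64.8%. Unknown depth, whole animals and peak width limit what single piRNA genes can show.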

Other observations

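The snoRNA gene *Y73F8A.1175* lies in an intron of *pkd-2*, a polycystin channel gene of male sensory neurons, on the other strand. The peak of 521 there lay at that snoRNA gene. The summit nearest to the 5′ end of *pkd-2* itself lay 415 bp upstream of it, at the valine tRNA gene *Y73F8A.t1*, with a signal of 343.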
